A study of Arabidopsis thaliana with 8 samples.

Results

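FATB (AT1G08510) and AT2G22890 are nuclear genes of Arabidopsis thaliana whose family members act on fatty acids in the plastid. They were chosen by locus, each through the probe that the array's annotation pairs with that gene and no other, which gave 2 probes (1421 for FATB and 2114 for AT2G22890) out of 692 with 1 gene and 3439 in all. Their difference between petc and WT was known when they were chosen, so their values in that contrast are a description and carry no test. Total RNA from 8 samples of the ecotype Landsberg was compared: 4 from wild type (WT) and 4 from petc, a mutant that lacks the Rieske subunit of cytochrome b6f, the complex that passes electrons between the photosystems. No treatment, tissue, plant age, growth condition or mutant allele is given in the sources used here. No label says whether the replicates came from separate plants, so errors and p-values cover the variation among these 8 samples alone, which may be technical.

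Plastids make nearly all fatty acids of a leaf cell while the chain is bound to acyl carrier protein (ACP). FATB is the thioesterase that cuts mainly saturated chains, above all palmitate, from ACP, so that they can leave the plastid for membrane lipids, sphingolipids and surface waxes, whereas the FATA thioesterases prefer oleate. FAD4 is the desaturase that places a trans double bond in the palmitate of chloroplast phosphatidylglycerol, a lipid found with both photosystems. AT2G22890 belongs by sequence to the family of FAD4. The array annotation and the RefSeq table give it no symbol, and the activity of its own protein was not measured in these samples.

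The deposited intensities are linear, in arbitrary units, with a total per sample between 3287 and 3440. Neither probe was listed at 0 in any sample. Each sample had 2978 to 3009 probes above 0. Within a group, replicates 1 and 2 were close to each other, as were 3 and 4 (Spearman rho 0.975 to 0.988 across probes), while rho between these pairs of a group was 0.90 to 0.921, about the same as the 0.895 to 0.921 between WT and petc samples within numbers 1 and 2 or within 3 and 4. Between WT and petc samples from different pairs of numbers, rho was lower, at 0.823 to 0.862. Results are therefore also given for numbers 1 and 2 and for numbers 3 and 4. The gene for the Rieske protein was not analysed here, so the labels were not checked through it.

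The FATB signal was lower in all 4 petc samples than in any WT sample. In WT the deposited intensity was 0.226 in replicate 1, 0.198 in replicate 2, 0.188 in replicate 3 and 0.151 in replicate 4. In petc it was 0.118, 0.0858, 0.117 and 0.102 in replicates 1 to 4. The groups did not overlap, and the lowest WT sample, replicate 4, lay above the highest petc sample, replicate 1. The means were 0.191 ± 0.0310 in WT and 0.106 ± 0.0152 in petc (SD, n = 4 each), with a coefficient of variation of 16.3% and 14.4%. After quantile normalisation the log2 fold change of petc over WT was -0.98 ± 0.16 (SE, n = 4 per group), a ratio of 0.505. The SE was 0.31 with replicates 1 and 2, and 3 and 4, of a group taken as correlated readings. That fit leaves in the error any shift between these pairs that WT and petc share. Fitting same-numbered WT and petc samples as blocks removes such a shift and gave an SE of 0.095. The labels do not say whether same-numbered samples belong together. In RNA of whole samples, fewer cells that express a gene and less of its RNA per cell cannot be told apart.

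The AT2G22890 signal was higher in all 4 petc samples than in any WT sample. In WT the deposited intensity was 0.624 in replicate 1, 0.539 in replicate 2, 0.596 in replicate 3 and 0.553 in replicate 4. In petc it was 1.48 in replicate 1, 1.57 in replicate 2, 1.46 in replicate 3 and 1.48 in replicate 4. The highest WT sample and the lowest petc sample were far apart beside the spread within either group. The means were 0.578 ± 0.0393 in WT and 1.50 ± 0.0519 in petc (SD, n = 4 each), with a coefficient of variation of 6.80% and 3.46%. The normalised log2 fold change was 1.31 ± 0.09 (SE, n = 4 per group), a 2.48-fold higher signal. The SE was 0.15 with the correlated readings and 0.076 with same-numbered samples as blocks.

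**Figure D1:**
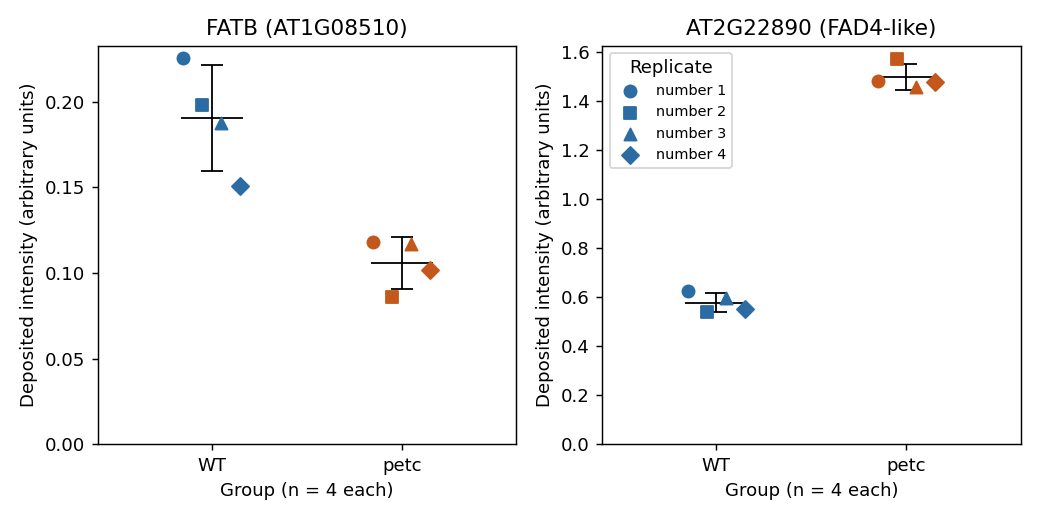
Deposited intensity (arbitrary units, from 0) of FATB and AT2G22890 in each WT and petc sample, with marker shape for the replicate number and black bars for the mean ± SD (n = 4). All petc samples lie below WT for FATB (at most 0.118 against at least 0.151) and above WT for AT2G22890 (at least 1.46 against at most 0.624).

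In the limma fit over all probes, 823 of 2947 probes tested, or 27.9%, had an adjusted p of at most 0.05, 12.7% higher and 15.3% lower in petc (373 and 450 probes, but 448 and 385 with the values as deposited). Both genes were among them, but they were chosen with this contrast known and nothing is read from their calls. The count over all probes was 1374 with the replicate number as a block, 345 (11.7%) with replicates 1 and 2, and 3 and 4, of a group as correlated readings, and 0 in limma with the means of those pairs, where 585 had an unadjusted p below 0.05. The fit with correlated readings keeps in its error any shift between the pairs that WT and petc share, and the block removes it. The groups did not overlap for 32.5% of all probes tested. Among the 595 single-gene probes tested, 26 had a more negative fold change than FATB and 12 a more positive one than AT2G22890. Neither gene was thus at the extreme of its direction.

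The difference had one direction in every replicate number for each gene, as it must for groups that do not overlap. For FATB the normalised log2 difference of petc from WT was -0.96 in number 1, -1.27 in number 2, -0.88 in number 3 and -0.83 in number 4. The mean over numbers 1 and 2 was -1.12, against -0.85 over numbers 3 and 4. This gap lay in WT, where the normalised log2 mean was -2.23 for numbers 1 and 2 against -2.51 for numbers 3 and 4, while petc had -3.35 and -3.37. Without normalisation the FATB difference was -0.57 in number 4 and -1.21 in number 2.

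For AT2G22890 the normalised log2 difference was 1.16, 1.45, 1.26 and 1.37 in numbers 1 to 4. Its mean was 1.30 over numbers 1 and 2 and 1.31 over numbers 3 and 4. The pairs of replicates, which stood apart over all probes, thus gave nearly the same difference for this gene, and number 2 gave the widest difference for both genes.

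**Figure D2:**
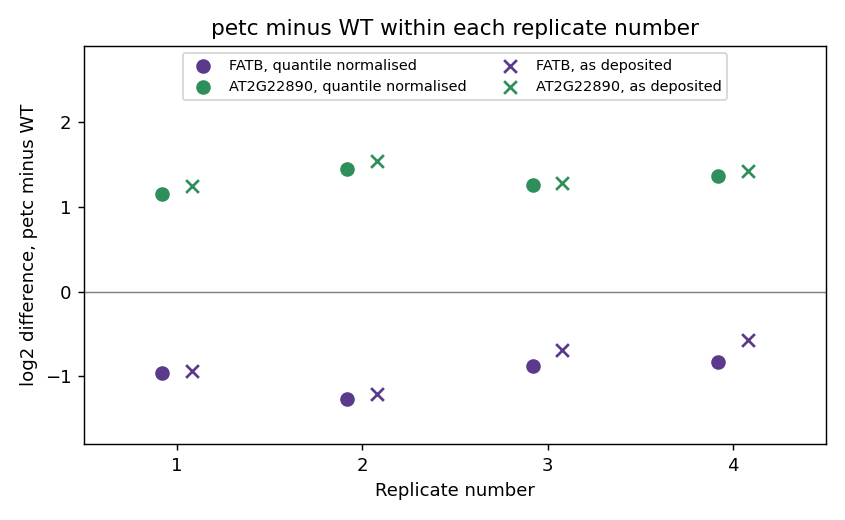
The log2 difference of petc from WT within each replicate number for FATB and AT2G22890, after quantile normalisation (circles) and as deposited (crosses). FATB lies below 0 (between -1.27 and -0.57) and AT2G22890 above 0 (between 1.16 and 1.55) in all 4 numbers. Groups that do not overlap give one direction whichever samples are compared.

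Because the genes differed in opposite directions, the ratio of their probes within one array was also followed. It does not depend on the scaling of an array by a constant factor. Its size has no meaning of its own, since different probes are not on one scale, and only its change between samples can be read. The ratio of AT2G22890 to FATB was 2.77, 2.72, 3.17 and 3.67 in WT replicates 1 to 4. In petc it was 12.6, 18.4, 12.4 and 14.6 in replicates 1 to 4. It averaged 3.08 ± 0.441 in WT and 14.5 ± 2.75 in petc (SD, n = 4 each). This was a change of 4.67-fold between the groups' mean log2 ratios. On the log2 scale it is the AT2G22890 difference minus the FATB difference, both as deposited. It is therefore no further evidence, and the genes were chosen with their directions known. The highest petc ratio, in replicate 2, came with the lowest FATB and the highest AT2G22890 intensity of that group.

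The position of the probes in the range of signals differed. In WT, 20.8% of the probes tested had a lower mean normalised signal than the FATB probe and 67.1% a lower one than the AT2G22890 probe, which describes brightness on the array and not transcript abundance. The mean normalised log2 signal of FATB was -2.37 in WT and -3.36 in petc, so its probe was dimmer still in petc. The position in petc was not counted. An offset added before log2 bore more on the dimmer probe. With an offset of 0.1 the log2 fold change was -0.54 for FATB and 1.18 for AT2G22890, and with an offset of 1 it was -0.11 and 0.63. Such an offset pulls a ratio of dim signals towards 0 by its construction. Without normalisation the log2 fold changes were -0.85 and 1.38, and after median centring -0.89 and 1.34.

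**Figure D3:**
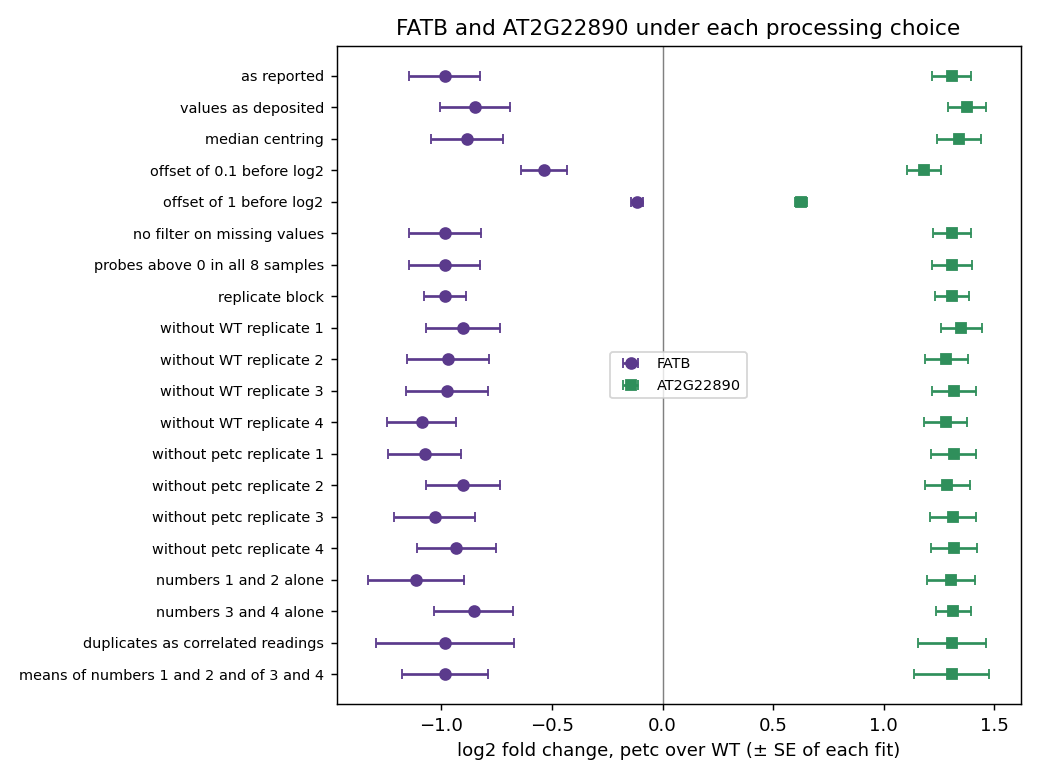
The log2 fold change of petc over WT (± SE of each fit) for FATB and AT2G22890 under each processing choice. FATB stays below 0 (-1.12 to -0.11) and AT2G22890 above 0 (0.63 to 1.38), and both come nearest to 0 with an offset of 1 before log2.

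Other probes of the same families gave little more. A further probe is paired with FATB and both FATA genes together, and it was listed at 0 in all 8 samples. Probe 3455 is paired with both FATA genes, AT4G13050 and FaTA (AT3G25110), and cannot be assigned to either. It had 0.489 ± 0.0334 in WT and 0.503 ± 0.0387 in petc (SD of the deposited intensity, n = 4). Its log2 fold change was 0.03 with a 95% interval of -0.23 to 0.29 (limma adjusted p = 0.889). The interval took the replicates of a group as independent, and none is given with correlated readings. Over all alternatives the limma adjusted p of probe 3455 was 0.605 to 0.993. Whether its change differs from that of FATB was not tested. A search of the annotation by locus found no probe for FAD4 itself (AT4G27030) or its other homologue AT1G62190.

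Of 181 other genes in 8 lists of lipid metabolism, 7 had a probe of their own and 6 could be tested. Of the 6, 2 rose and 1 fell, where 27.9% of all probes tested passed. With the pairs of replicates as correlated readings (consensus correlation 0.674), 1 rose and 0 fell, where 11.7% of all probes passed. Their median log2 fold change was 0.10, against -0.02 over all probes tested. The lists were chosen with earlier results of these data known, so the calls and adjusted p-values of list genes are read as a description. The measured genes lay in the lists of plastid fatty acid synthesis (2), desaturases (1), plastid glycerolipids (3) and extraplastidial glycerolipids and sphingolipids (1). The lists of acyl release and export (beside FATB), elongation with wax and cutin, beta-oxidation, and oxylipins had 0 measured genes, and so did the 25 markers of tissues and cell types.

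In plastid fatty acid synthesis, upstream of FATB, AT1G24360 rose. It encodes the ketoacyl-ACP reductase of the elongation cycle. Its deposited intensity was 0.909, 0.984, 1.03 and 0.969 in WT replicates 1 to 4 and 1.22, 1.23, 1.22 and 1.15 in petc replicates 1 to 4, without overlap. The log2 fold change was 0.29 ± 0.09 (SE, n = 4 per group, limma adjusted p = 0.0443). It no longer passed when WT replicate 1 was left out (limma adjusted p = 0.103), nor without WT replicate 2 (0.0852) or 4 (0.0827). The same held without petc replicate 1 (0.0981), 2 (0.102), 3 (0.103) or 4 (0.0703). The adjusted p was 0.0654 after median centring and 0.269 with correlated readings, and it ran from 0.00704 to 0.453 across the alternatives tried. AT3G56130, a biotin carboxyl carrier-like protein known as a negative regulator of the plastid acetyl-CoA carboxylase, had a log2 difference of 0.20 ± 0.19 (limma adjusted p = 0.506, and 0.199 to 0.906 across the alternatives). Its WT values of 0.214 to 0.383 overlapped those of petc, 0.307 to 0.391.

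Among plastid glycerolipid genes, AT4G13550 rose. It encodes a plastid lipase known to act on galactolipids under heat. Its deposited intensity was 0.488, 0.502, 0.400 and 0.328 in WT replicates 1 to 4 and 0.915, 0.911, 0.835 and 0.846 in petc replicates 1 to 4. The groups did not overlap, and in both the values of replicates 1 and 2 were above those of 3 and 4. The log2 fold change was 1.05 ± 0.15 (SE, n = 4 per group, limma adjusted p = 0.00156). It was 0.92 for numbers 1 and 2 and 1.19 for numbers 3 and 4. With correlated readings it also passed (limma adjusted p = 0.0147). Its adjusted p ran from 0.000381 to 0.123 across the alternatives, the highest with the means of the pairs, a fit in which 0 of 2947 probes passed. AT3G61680, a plastid lipase that acts on phosphatidylglycerol, the lipid on which FAD4 acts, had a log2 difference of 0.01 ± 0.22 (limma adjusted p = 0.982, and 0.570 to 0.991 across the alternatives). Its WT values of 0.157 to 0.223 lay within the petc range of 0.136 to 0.287. AT3G58830, the phosphatase of the last step of phosphatidylglycerol synthesis, was listed at 0 in all 8 samples.

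AT4G26770, of the CDP-diacylglycerol synthase family that makes a precursor of phosphatidylglycerol and phosphatidylinositol, fell. Its deposited intensity was 0.265, 0.215, 0.289 and 0.272 in WT replicates 1 to 4 and 0.233, 0.194, 0.189 and 0.176 in petc replicates 1 to 4. The groups overlapped, since WT replicate 2 lay below petc replicate 1. The log2 fold change was -0.46 ± 0.15 (SE, n = 4 per group, limma adjusted p = 0.0471). It was -0.19 for numbers 1 and 2 and -0.73 for numbers 3 and 4. It no longer passed when WT replicate 1 was left out (limma adjusted p = 0.0984), nor without WT replicate 3 (0.114) or 4 (0.104). The same held without petc replicate 2 (0.0886), 3 (0.112) or 4 (0.119). The adjusted p was 0.0554 as deposited, 0.0607 after median centring and 0.283 with correlated readings, and it ran from 0.0116 to 0.475 across the alternatives. Among desaturases, the measured gene beside AT2G22890 was AT5G16230, of the soluble acyl-ACP desaturases. Its log2 fold change was -0.20 ± 0.20 (limma adjusted p = 0.520, and 0.223 to 0.933 across the alternatives), with overlapping groups.

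**Figure D4:**
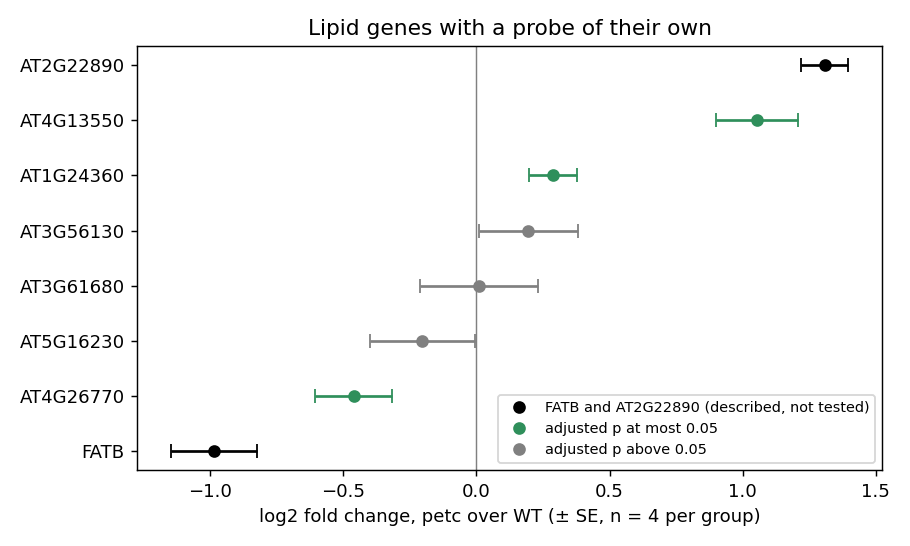
The log2 fold change of petc over WT (± SE, n = 4 per group) for FATB, AT2G22890 and the 6 other lipid genes tested. AT4G13550 (1.05) is the other gene with a change beyond 1 on the log2 scale, and AT1G24360 (0.29) and AT4G26770 (-0.46) passed the threshold with smaller changes.

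A further 10 probes are paired with several genes of which at least 1 is in a lipid list. Of the 7 tested, 2 were higher and 0 lower in petc at the limma threshold, where 27.9% of all probes tested passed. No gene is named from them.

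The genes most like each member over the 8 samples were found among 586 others with a single-gene probe above 0 in every sample. Likeness was the root mean square difference between normalised log2 profiles, each centred on its own mean. For FATB these were AT2G30880 (SWAP70), with a difference of 0.17, AT2G19280 with 0.21 and AT3G09050 with 0.23, against a median of 0.60 over all genes compared. Their log2 fold changes were -0.71 ± 0.11, -1.27 ± 0.10 and -1.06 ± 0.08 (SE, n = 4 per group). The lowest WT value was in replicate 4 for FATB and SWAP70 and in replicate 3 for AT2G19280 and AT3G09050.

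For AT2G22890 the closest were AT1G05490 (chr31, a chromatin remodelling protein) with a difference of 0.14, AT2G21720 with 0.15 and AT4G25290 with 0.18, against a median of 0.72. Their log2 fold changes were 1.27 ± 0.13, 1.24 ± 0.11 and 1.29 ± 0.15 (SE, n = 4 per group), close to that of AT2G22890 as the measure requires. The measure is set mostly by the size of the difference between petc and WT, which these genes share by selection.

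**Figure D5:**
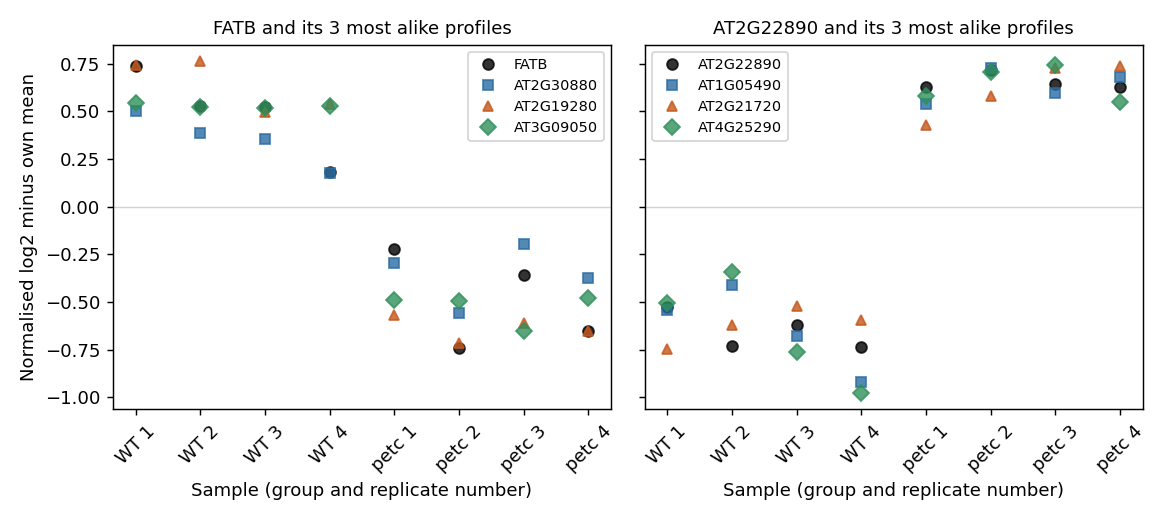
Normalised log2 values minus the gene's own mean in each WT and petc sample, for FATB and AT2G22890 (black circles) and the 3 single-gene probes most like each. The groups separate in every gene shown, and SWAP70 (AT2G30880) differs from FATB by 0.17 on average (root mean square).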

How the data were processed

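The authors deposited linear intensities, 1 column per sample. No source used here gives the scanner, the background correction or the scaling. All 8 columns were used. Probes were named through GEO's platform annotation and RefSeq's gene table of TAIR10.1 (690 of 692 single-gene probes matched). Intensities of 0 were set to missing and log2 values were quantile normalised, since sample medians differed by up to 0.131. Probes with at least 3 values per group were fitted with limma 3.58.1 in R 4.3.3 (lmFit, eBayes). Benjamini-Hochberg adjustment over all probes was used, with a threshold of 0.05. The fit was also run on simulated data with independent samples, which cannot show how it behaves with replicates as alike as these. Printed intensities are as deposited, so their ratio need not equal the fold change. Plots were made in matplotlib 3.10.9. The number of arrays limits the precision.

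Same-numbered WT and petc samples deviated together from their group means (Pearson r 0.586 to 0.649 over 2911 probes). These deviations include the difference between numbers 1 and 2 and numbers 3 and 4, and r for unlike numbers is not given. The best match of every sample in the other group was the sample of the same number. This pairing was seen in the data, since the labels do not define the numbers.

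The members and lists were chosen with earlier results of these data known. The genes named are the 2 members, every listed gene with a single-gene probe and the 3 most alike profiles of each member. Neighbours in brightness, also in that rule, were left out because probes are not on one scale. The probes shared with FATA genes were added through their annotation. Alternatives concerned scaling, an offset, the filter, the replicate block, left-out samples and the pairs of replicates.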

Additional observations from a re-analysis of the deposited data

Results flagged for a closer look

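Of 34 groups of 4 samples checked, covering the named genes, the ratio of AT2G22890 to FATB and the sample totals and medians, 1 had a sample that stood far from the others, where about 1 in 20 is flagged by chance for independent samples. It was AT3G09050, one of the genes most like FATB, whose normalised log2 value was -0.97 in petc replicate 3 and had a median of -0.81 over the remaining petc samples. No value of FATB or AT2G22890 was flagged.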

How the results depend on the processing

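FATB stayed lower and AT2G22890 higher in petc under all 19 alternatives. The groups did not overlap for either gene, so leaving out samples could not turn a direction. The filters, the block, the correlated readings and the means of the pairs left both fold changes as they were. Only an offset before log2 moved them by more than the spread between replicates: with 0.1 to -0.54 and 1.18 (difference between the genes -1.72 in place of -2.29), and with 1 to -0.11 and 0.63 (difference -0.74). Leaving out each sample gave -1.09 to -0.90 for FATB, 1.28 to 1.35 for AT2G22890 and -2.39 to -2.19 for their difference. The count of 823 probes (373 higher, 450 lower; 448 and 385 as deposited) was 1374 with the replicate block, 627 to 725 without each sample, 345 with the pairs of replicates as correlated readings (consensus correlation 0.674), and 0 in limma with the means of the pairs, where 585 had an unadjusted p below 0.05. The block changed no call of a lipid gene. Of the 6 lipid genes, 3 passed as reported, 1 after median centring, 1 in numbers 1 and 2 alone, 1 with correlated readings, 1 to 2 without each sample, and 0 in limma with the means (1 at an unadjusted p below 0.05). Direction turned for AT3G61680 in numbers 1 and 2 alone (-0.10) and when samples were left out (-0.15 to 0.18), and for AT3G56130 in numbers 3 and 4 alone (-0.10), all of them not past the threshold. The cause of these shifts was not tested. The background correction is not stated, so signal over background could not be given.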
